A study of Mus musculus with 3 samples.

Results

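Fibroblast growth factor (FGF) signalling was described through 9 genes, the ligands Fgf1, Fgf2, Fgf7, Fgf10 and Fgf18 and the receptors Fgfr1, Fgfr2, Fgfr3 and Fgfr4, out of 21446 genes shared by identifier among 3 single-cell libraries. None of the 9 was used to sort cells into classes. The libraries hold cells carrying the Pthrp-mCherry knock-in reporter, sorted by fluorescence from dissociated mandibular molars of mice at postnatal day 15 (P15), P25 and 8 weeks. Every library shares this genotype and sort, the cells were pooled from several mandibles, and no unsorted or reporter-negative library was used. mCherry is driven by the gene of parathyroid hormone-related protein (Pthlh), so the reporter marks any cell that expressed that gene, cementoblasts among them. Each age is 1 library, so differences between ages carry no test and their intervals cover counting error only.

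FGF ligands are secreted or released proteins that bind receptor tyrosine kinases together with heparan sulfate chains. The receptors signal through the adaptor Frs2 to the Ras and ERK cascade, and the pathway switches on its own brakes, among them the Sprouty genes and the phosphatase Dusp6, along with the transcription factors Etv4 and Etv5. Fgf7 and Fgf10 are mesenchymal ligands that act mostly on the epithelial splice form of Fgfr2, Fgf2 and Fgf18 act on the mesenchymal receptor forms, and Fgf1 binds every form. In the tooth, Fgf10 from mesenchyme sustains dental epithelium, and in bone Fgfr1, Fgfr2 and Fgfr3 each act in cells of the osteoblast lineage. The 3' tags counted here do not separate the epithelial from the mesenchymal splice forms.

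In GRCm38 the members lie on 8 chromosomes (GENCODE vM21). Fgf1 is at chromosome 18, 38838673 to 38929472, Fgf2 at chromosome 3, 37348346 to 37410108, Fgf7 at chromosome 2, 126034658 to 126091185, Fgf10 at chromosome 13, 118669791 to 118792115 and Fgf18 at chromosome 11, 33117430 to 33147400. Fgfr1 is at chromosome 8, 25513654 to 25575718, Fgfr3 at chromosome 5, 33721674 to 33737068 and Fgfr4 at chromosome 13, 55152640 to 55168759. The GENCODE record of Fgfr2 runs on through many neighbouring genes, and the RefSeq record of the same build places it at chromosome 7, 130162451 to 130266808. Fgf2 is overlapped by Nudt6 on the opposite strand and Fgf7 by Fam227b, and how the counting treated such tags is not given in the sources used here.

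The libraries held 12926, 8971 and 5192 cells at P15, P25 and 8 weeks, with medians of 14253.5, 15834 and 8712.5 counts of unique molecular identifiers (UMIs) per cell. The header of the P25 matrix names Cell Ranger 6.0.1, where the labels give 6.1.2 for every library. Its gene table holds 32293 genes, beside 22056 at P15 and 8 weeks. Any effect of these differences cannot be told apart from the age. The libraries shared 26 (P15 and P25), 16 (P15 and 8 weeks) and 13 (P25 and 8 weeks) cell barcodes. Cells were gated on raw UMIs of 7 genes, each cell going to the first gate it met, in the order given here. The first gates were Ptprc (at least 2 UMIs), the pan-leukocyte gene, and Krt14 (10), a basal keratin gene. The mesenchymal gates were Rgs5 (3), a mural cell gene, Ifitm5 (2) and Ibsp (20), genes of mineralizing cells that mark the study's cementoblasts β and α, Pappa2 (2), a protease gene, and Hand2 (2), a gene of the study's periapical cells. In the order P15, P25 and 8 weeks, the gates held 851, 221 and 19 cells (Ptprc), 1357, 905 and 116 (Krt14), 448, 170 and 180 (Rgs5), 787, 893 and 298 (Ifitm5), 1117, 1637 and 1136 (Ibsp), 599, 46 and 19 (Pappa2) and 210, 316 and 226 (Hand2). The remaining 57.4% of cells met no gate, and 12.9% met more than 1. The overlap lay mostly in certain gates. Of the Ifitm5 gate cells, 265, 219 and 60 at P15, P25 and 8 weeks met no other gate. Of the Ibsp gate cells, 979, 824 and 543 met no other gate.

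The gates were checked against other markers, given as counts per 1000000 UMIs (CPM) over the summed cells of a gate. Epithelial markers of the Krt14 gate, 8 genes such as Krt5 and Epcam, summed to 8187 CPM (P15), 13801 (P25) and 13277 (8 weeks), and all 8 were detected in each library. Immune markers of the Ptprc gate, 11 genes, summed to 114319 CPM (P15), 24523 (P25) and 40281 (8 weeks). At P15, 545 of the 851 Ptprc gate cells had at least 2 UMIs of S100a8 and 322 had at least 2 of Csf1r. At P25 these were 19 and 176 of 221 cells. The Ptprc gate was thus not shown to hold the same immune cells at each age. Both gates also held the collagen gene Col1a1, at 2282 CPM (P15), 2838 (P25) and 826 (8 weeks) in the Krt14 gate and 3802 CPM (P15), 6197 (P25) and 459.8 (8 weeks) in the Ptprc gate, which are values of a mesenchymal gene in gates of other cell types. The Rgs5 gate went against its label after P15: its Rgs5 level was 3239 CPM (P15), 353 (P25) and 373 (8 weeks), and Notch3, a receptor of mural cells, stood at 224 CPM (P15), 36.7 (P25) and 5.71 (8 weeks), while Ibsp stood at 4156 CPM (P15), 4735 (P25) and 5810.1 (8 weeks). It is therefore called the Rgs5 gate and not mural cells. For the Pappa2 gate the markers were Col13a1 and Spon2, and at 8 weeks Col13a1 had no UMI in its 19 cells. With doubled UMI minimums that gate held 422, 14 and 9 cells at P15, P25 and 8 weeks. It was not shown to hold the same kind of cell at each age. Periapical markers, 6 genes such as Nts, summed to 4801 CPM (P15), 8346 (P25) and 10094 (8 weeks) in the Hand2 gate. Other genes of cementoblast α, 8 in all, summed to 3440.3 CPM (P15), 3375 (P25) and 5024 (8 weeks) in the Ibsp gate and 3162 CPM (P15), 2142 (P25) and 4006 (8 weeks) in the Ifitm5 gate, the Ibsp gate being higher in each library. The 7 genes of cementoblast β were Dmp1, Bglap, Phex, Col11a2, Smpd3, Col1a1 and Sparc. Dmp1 is in both lists, and the study also gives Col1a1 and Sparc as markers of a precursor cluster. The sum is given without a split by gene. It was 36529.7 CPM (P15), 29487 (P25) and 23829.5 (8 weeks) in the Ibsp gate. In the Ifitm5 gate it was 42219.9 CPM (P15), 122629.7 (P25) and 100151 (8 weeks), higher than in the Ibsp gate in each library. The difference was much smaller at P15, so the Ifitm5 gate was not shown to hold the same kind of cell at each age. Pthlh itself stood at 397 CPM (P15), 313 (P25) and 391 (8 weeks) in the Ibsp gate and 34.5 CPM (P15), 52.1 (P25) and 9.38 (8 weeks) in the Ptprc gate.

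Fgfr1, the receptor most associated with mesenchyme, was highest in the 2 gates of mineralizing cells and lowest in the epithelial and immune gates. In the Ibsp gate it stood at 741 CPM (P15), 555 (P25) and 678 (8 weeks). In the Ifitm5 gate it stood at 571 CPM (P15), 419 (P25) and 678 (8 weeks). These 2 gates exceeded the other 5 in each library, and at 8 weeks their intervals overlapped each other. The Rgs5 gate held 276 CPM (P15), 323 (P25) and 404 (8 weeks), and the Pappa2 gate 270.0 CPM (P15), 265 (P25) and 355 (8 weeks). The Hand2 gate held 135 CPM (P15), 258 (P25) and 377 (8 weeks), with non-overlapping intervals at the 3 ages. It was the last gate and held 210, 316 and 226 cells at these ages. With Hand2 taken before Ibsp it held 276, 1132 and 821, so more of its cells went to earlier gates at P25 and 8 weeks. The Krt14 gate held 81.4 CPM (P15), 47.5 (P25) and 22.9 (8 weeks), and the Ptprc gate 82.1 CPM (P15), 116 (P25) and 9.38 (8 weeks), the last from 2 UMIs in 19 cells. In the cells of these 2 gates with at most 5 Col1a1 UMIs per 10000, Fgfr1 was 36.2 CPM (P15), 11.3 (P25) and 10.5 (8 weeks) for Krt14 and 20.6 CPM (P15), 15 (P25) and 5.81 (8 weeks) for Ptprc.

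Shares of cells with an Fgfr1 UMI were compared after each cell was thinned to 3000 UMIs. In the Ibsp gate 84.8% (P15), 77.5% (P25) and 81.7% (8 weeks) of thinned cells had one (99.2%, 98.9% and 97% unthinned). The Ptprc gate, taken as a comparison, gave 12.8% (P15), 12.3% (P25) and 6.25% (8 weeks), against 29.3%, 26.2% and 10.5% unthinned. Of its cells, 330 of 851 (P15), 91 of 221 (P25) and 12 of 19 (8 weeks) were low in Col1a1. Its shares were thus not shown to be a background of leukocytes alone. The Krt14 gate gave 17.4% (P15), 8.79% (P25) and 10.3% (8 weeks), against 45.8%, 32.7% and 20.7% unthinned. The thinned Krt14 share at P25 is below that of the whole Ptprc gate. Median UMIs before thinning were 15110, 14216 and 9240 in the Ibsp gate, 11072, 16455 and 11056 in the Ptprc gate and 15853, 31000 and 14762.5 in the Krt14 gate. Thinning left out 3, 18 and 55 cells of the Ibsp gate, 62, 1 and 3 of the Ptprc gate and 99, 97 and 19 of the Krt14 gate as too shallow.

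The order of gates for Fgfr2, whose epithelial form receives Fgf7 and Fgf10, differed between the ages. The Pappa2 gate held 278 CPM (P15), 119 (P25) and 77 (8 weeks), and the Ibsp gate 272 CPM (P15), 130.2 (P25) and 128 (8 weeks). At P15 these 2 gates led with overlapping intervals, and at P25 and 8 weeks the Rgs5 gate led, with 202 CPM (P15), 186 (P25) and 212 (8 weeks). The Ifitm5 gate held 163 CPM (P15), 69.6 (P25) and 94.1 (8 weeks), and the Hand2 gate 107 CPM (P15), 104 (P25) and 122 (8 weeks). The epithelial Krt14 gate held 111 CPM (P15), 62.2 (P25) and 51.1 (8 weeks), and its cells low in Col1a1 gave 87.9 CPM (P15), 53.9 (P25) and 46.6 (8 weeks). The Ptprc gate held 48.2 CPM (P15), 36.9 (P25) and 0 (8 weeks), and 6.93 CPM (P15), 9.13 (P25) and 0 (8 weeks) in its cells low in Col1a1. After thinning, 24.8% (P15), 16.3% (P25) and 18.6% (8 weeks) of Krt14 gate cells had an Fgfr2 UMI (64.8%, 63.5% and 49.1% unthinned), against 7.86% (P15), 4.09% (P25) and 0% (8 weeks) of Ptprc gate cells (19.2%, 19.9% and 0% unthinned). The 0 of 16 thinned Ptprc gate cells at 8 weeks are too few to bound the share of cells with a UMI closely. The exact Poisson upper bound of the level is 17.3 CPM.

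Fgfr3, a receptor that restrains the growth of long bones, was highest in the Pappa2 and Rgs5 gates. The Pappa2 gate held 83.4 CPM (P15), 43.3 (P25) and 30.0 (8 weeks). The Rgs5 gate held 32.3 CPM (P15), 56.3 (P25) and 30.9 (8 weeks). Their intervals overlapped at P25 and 8 weeks, and at P15 the Pappa2 gate was above all other gates. The Ibsp gate held 23 CPM (P15), 18.7 (P25) and 17.8 (8 weeks), the Hand2 gate 15.2 CPM (P15), 25 (P25) and 17.7 (8 weeks), and the Ifitm5 gate 14.5 CPM (P15), 10.9 (P25) and 12.2 (8 weeks). The Krt14 gate held 9.21 CPM (P15), 12.2 (P25) and 10.1 (8 weeks), and the Ptprc gate 8.91 CPM (P15), 6.66 (P25) and 4.69 (8 weeks). Cells low in Col1a1 gave 5.96 CPM (P15), 10.2 (P25) and 7.87 (8 weeks) in the Krt14 gate. In the Ptprc gate they gave 1.54 CPM (P15), 0.537 (P25) and 0 (8 weeks). At 8 weeks the intervals of neighbouring gates overlapped along the whole order.

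Fgfr4, a receptor best known in liver and muscle, gave few UMIs. Over all cells it gave 0.608 CPM (P15), 0.272 (P25) and 0.26 (8 weeks), from 114, 44 and 12 UMIs. Its highest gate at P15 and P25 was Pappa2, with 0.953 CPM at P15 (12 UMIs) and 0.984 at P25 (1 UMI). It did not pass the filter on low counts and entered no test, so 8 of the 9 members were tested.

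**Figure D1:**
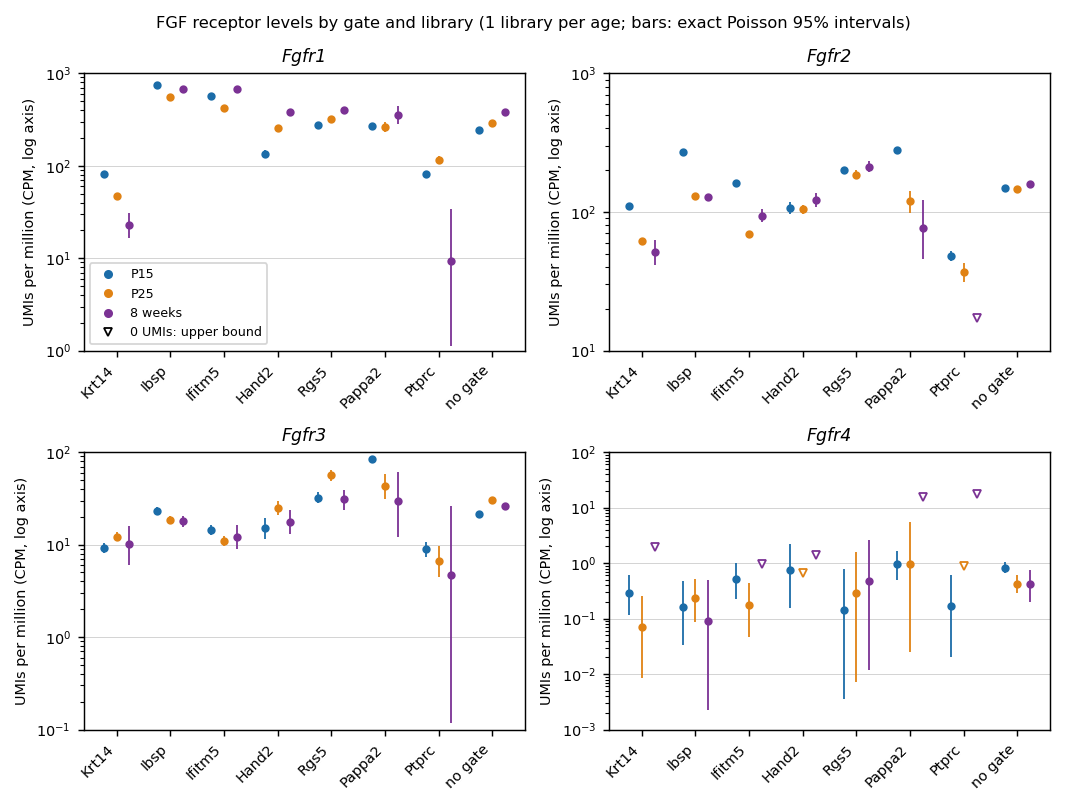
Levels of the 4 FGF receptors in CPM on log axes, by gate, with 1 point per library (P15, P25, 8 weeks) and exact Poisson 95% intervals for counting error. Open triangles mark the upper bound where no UMI was counted. Fgfr1 is highest in the Ibsp and Ifitm5 gates, Fgfr3 in the Pappa2 gate at P15 (83.4 CPM), and Fgfr4 lies under 1 CPM in each gate and library where it was detected.

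Fgf1, the ligand of every receptor form, was highest in the Krt14 gate at P15 and the Ptprc gate at P25, with intervals apart from those of the other gates. In the Krt14 gate it stood at 10.7 CPM (P15), 2.4 (P25) and 1.6 (8 weeks), so the epithelial level at P15, from 256 UMIs, was above every other gate of that library. Cells of that gate low in Col1a1 gave 10.1 CPM (P15), 1.91 (P25) and 1.97 (8 weeks). In the Ptprc gate Fgf1 stood at 0.514 CPM (P15), 11.7 (P25) and 0 (8 weeks), the P25 value coming from 49 UMIs in 30 of 221 cells. Of those UMIs, 48 lay in the 176 cells that also had at least 2 UMIs of Csf1r, the receptor of the macrophage growth factor. The same class at P15 held 322 cells and 5 Fgf1 UMIs. In the Ifitm5 gate Fgf1 stood at 1.3 CPM (P15), 3.37 (P25) and 6.72 (8 weeks), the highest of the gates at 8 weeks. Its interval there overlaps those of the Pappa2 (1 UMI), Rgs5, Krt14 and Ptprc (0 UMIs) gates. The order of ages was opposite to that in the Ibsp gate, 2.6 CPM (P15), 1.6 (P25) and 1.36 (8 weeks). The Hand2 gate had 2 UMIs in each library, and the Rgs5 gate held 1.57 CPM (P15), 1.42 (P25) and 2.85 (8 weeks).

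Fgf2, a broadly acting ligand without a classical secretion signal, was found in every mesenchymal gate of each library. It stood at 10.8 CPM (P15), 7.22 (P25) and 12.6 (8 weeks) in the Ibsp gate and 8.63 CPM (P15), 4.88 (P25) and 9.57 (8 weeks) in the Ifitm5 gate. The Hand2 gate held 12.7 CPM (P15), 4.68 (P25) and 11.1 (8 weeks), and the Rgs5 gate 11 CPM (P15), 17.1 (P25) and 14.3 (8 weeks). The Pappa2 gate held 8.42 CPM (P15), 7.87 (P25) and 51.4 (8 weeks), the last from 19 cells. The Krt14 gate held 2.08 CPM (P15), 1.1 (P25) and 0.532 (8 weeks), and the Ptprc gate 2.74 CPM (P15), 2.62 (P25) and 0 (8 weeks). The Krt14 gate was below every mesenchymal gate in each library, with intervals apart, and so was the Ptprc gate at P15. At P25 the Ptprc interval, 1.31 to 4.68 CPM, overlapped those of the Ifitm5, Hand2 and Pappa2 gates. At 8 weeks its 0 UMIs leave an upper bound of 17.3 CPM, above the levels of the Ibsp, Ifitm5, Hand2 and Rgs5 gates.

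Fgf7, also called keratinocyte growth factor, was higher in Ibsp than in Ifitm5 cells at each age. The Ibsp gate held 21.7 CPM (P15), 13.4 (P25) and 16 (8 weeks), and the Ifitm5 gate 4.02 CPM (P15), 3.54 (P25) and 5.43 (8 weeks), with intervals that did not overlap within any library. The Rgs5 gate held 14.3 CPM (P15), 21.6 (P25) and 7.61 (8 weeks), and the Hand2 gate 5.98 CPM (P15), 7.38 (P25) and 10.4 (8 weeks). The Pappa2 gate held 8.02 CPM (P15), 48.2 (P25) and 34.2 (8 weeks), from 599, 46 and 19 cells. Fgf7 was lowest in the Krt14 and Ptprc gates at P15. The Krt14 gate held 1.67 CPM (P15), 2.37 (P25) and 0 (8 weeks), and the Ptprc gate 0.942 CPM (P15), 7.37 (P25) and 0 (8 weeks). The Ptprc value at 8 weeks has an upper bound of 17.3 CPM, so its place there is open. Cells low in Col1a1 gave 0.256 CPM (P15), 0.382 (P25) and 0 (8 weeks) in the Krt14 gate. In the Ptprc gate they gave 0.577 CPM (P15), 0.537 (P25, 1 UMI) and 0 (8 weeks).

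Fgf18, a ligand of osteoblast and chondrocyte lineages, had the opposite order in the 2 mineralizing gates. The Ifitm5 gate held 5.19 CPM (P15), 4.49 (P25) and 3.1 (8 weeks), and the Ibsp gate 1.63 CPM (P15), 2.54 (P25) and 2.08 (8 weeks). Their intervals were apart at P15 and P25 and overlapped at 8 weeks. The Rgs5 gate held 1.43 CPM (P15), 3.13 (P25) and 4.28 (8 weeks), the Hand2 gate 0.747 CPM (P15), 2.88 (P25) and 1.92 (8 weeks), and the Krt14 gate 1.08 CPM (P15), 0.707 (P25) and 0 (8 weeks).

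Fgf10 was sparse in the gated cells, with 0 to 17 UMIs in every gate and library. The Hand2 gate held 2.24 CPM (P15), 3.06 (P25) and 0.384 (8 weeks), and the Ibsp gate 0.704 CPM (P15), 0.351 (P25) and 0.723 (8 weeks). At P25 and 8 weeks the highest values came from the Pappa2 gate, 0.556 CPM (P15), 7.87 (P25) and 68.5 (8 weeks), which rest on 7, 8 and 16 UMIs. The 19 cells of that gate at 8 weeks are under the minimum of 20 set for a sum, and their Poisson interval runs from 39.1 to 111 CPM.

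**Figure D2:**
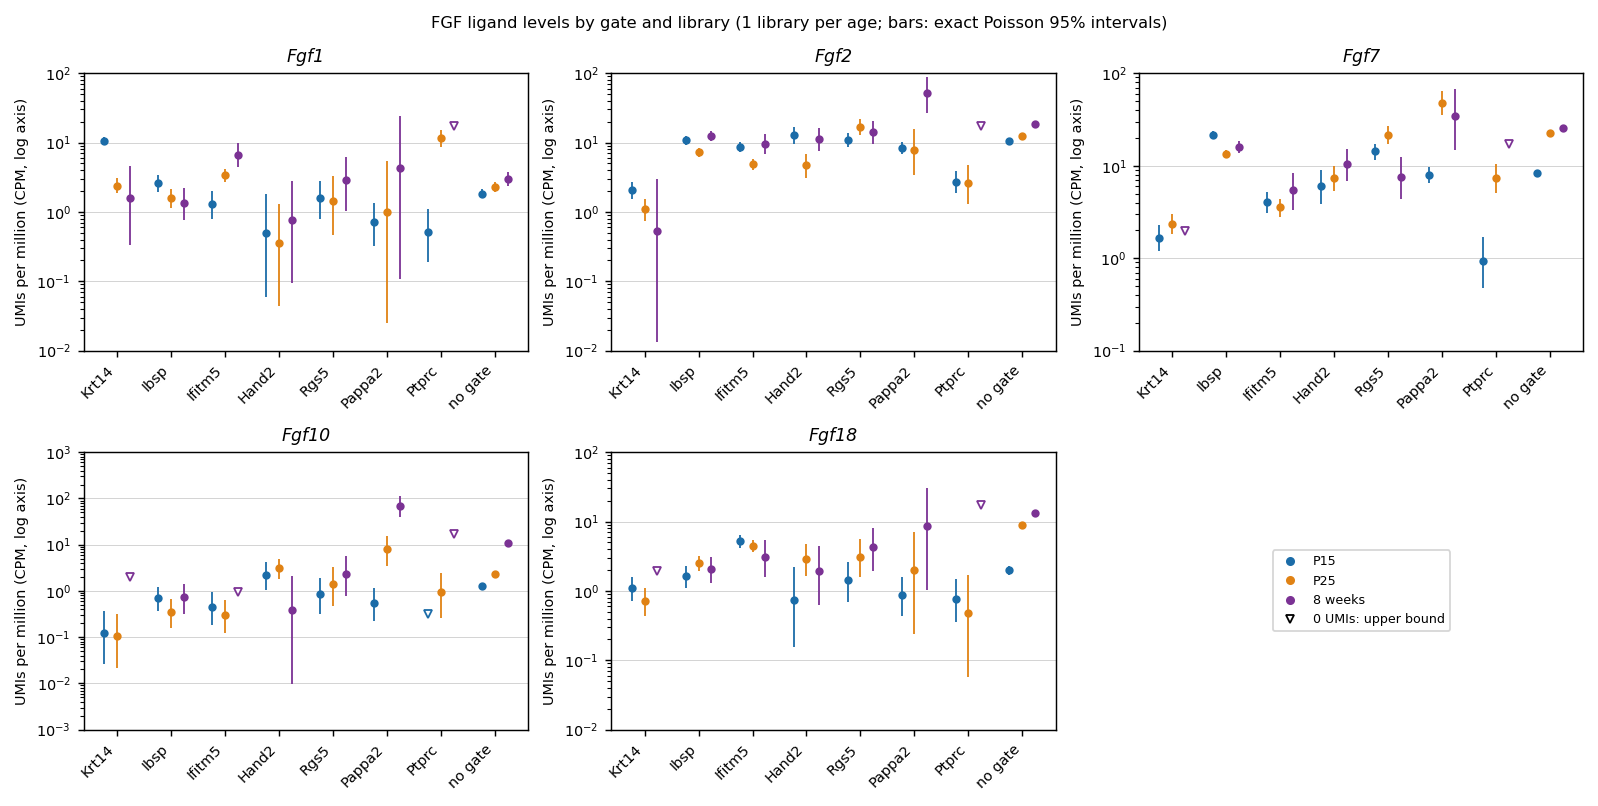
Levels of the 5 FGF ligands in CPM on log axes, by gate and in cells of no gate, with 1 point per library and exact Poisson 95% intervals. Fgf1 peaks in the Krt14 gate at P15 (10.7 CPM) and the Ptprc gate at P25 (11.7 CPM), and Fgf10 and Fgf18 are highest at 8 weeks in cells of no gate, apart from Fgf10 in the Pappa2 gate of 19 cells.

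To ask whether these differences held over the 3 libraries, UMIs summed by gate and library were compared by edgeR's quasi-likelihood test with the library as a block. A gene was called at a Benjamini-Hochberg adjusted p under 0.05 over the 13774 genes tested if its log2 fold change also exceeded 1 in size. The libraries of the 3 ages serve as the replicates, and all sums share the same fit and estimate of the spread. A p therefore sets a gate's mean difference against the spread left after the library term, pooled over the gates. It does not require the difference in each library. Sums of fewer than 20 cells were left out, which left 19 of 21, without the Ptprc and Pappa2 gates at 8 weeks. The contrasts share sums with each other.

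Against the mean of the 5 mesenchymal gates (Ibsp, Ifitm5, Hand2, Rgs5 and Pappa2), 7 of the 8 tested members differed in the Krt14 gate, 6 lower and 1 higher, where 18.1% of all genes were called lower and 15% higher (33.1% in all). Fgfr1 was 6.88-fold lower (log2 fold change -2.78 ± 0.36 (SE), adjusted p = 2.4e-05) and Fgfr3 2.36-fold lower (log2 fold change -1.24 ± 0.26 (SE), adjusted p = 0.00118). Fgfr2 was 1.94-fold lower (log2 fold change -0.96 ± 0.21 (SE), adjusted p = 0.00147), just short of the limit on size. Among the ligands, Fgf2 was 6.01-fold lower (log2 fold change -2.59 ± 0.33 (SE), adjusted p = 1.6e-05) and Fgf7 6.13-fold lower (log2 fold change -2.61 ± 0.58 (SE), adjusted p = 0.00152). Fgf10 (log2 fold change -3.13 ± 1.01 (SE), adjusted p = 0.0161) and Fgf18 (log2 fold change -1.37 ± 0.47 (SE), adjusted p = 0.0221) were lower as well, the Fgf10 value resting on 3, 3 and 0 UMIs in the Krt14 gate. Fgf1 was the member that was higher, 4.18-fold (log2 fold change 2.06 ± 0.67 (SE), adjusted p = 0.0172). At P25 its Krt14 level, 2.4 CPM, was below the Ifitm5 gate (3.37), with overlapping intervals. At 8 weeks its Krt14 level, 1.6 CPM, was below the Ifitm5 (6.72) and Rgs5 (2.85) gates. It was above the Ibsp (1.36) and Hand2 (0.768) gates, and most of these intervals overlapped. The Fgf1 call was lost without P15 (log2 fold change 0.83), without P25 and with the UMI minimums of the gates doubled. The Fgf10 call was lost without P25, with the minimums halved and with an Rgs5 minimum of 20 UMIs. The Fgf18 call was lost without P25 or P8w, with the minimums halved and without the 5% of cells with the most UMIs. The Fgfr3 call was lost without P15, with the minimums halved and with an Rgs5 minimum of 20 UMIs. With that Rgs5 minimum the Fgf18 value was 0.074. The sums held the whole Krt14 gate, in which 780 of 1357 (P15), 599 of 905 (P25) and 63 of 116 (8 weeks) cells were low in Col1a1. Those cells were not tested apart.

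In the Ptprc gate, 6 of the 8 tested members were lower than the mesenchymal mean, where 14.8% of genes were called lower and 35.4% in either direction. The receptors were lower, Fgfr1 3.63-fold (log2 fold change -1.86 ± 0.41 (SE), adjusted p = 0.00182), Fgfr2 3.56-fold (log2 fold change -1.83 ± 0.28 (SE), adjusted p = 8.3e-05) and Fgfr3 3.22-fold (log2 fold change -1.69 ± 0.33 (SE), adjusted p = 7.2e-04). The ligands Fgf2, Fgf7 and Fgf18 were 3.23-fold, 3.59-fold and 2.94-fold lower, with adjusted p = 0.00184, 0.0305 and 0.0436 by the same test. Fgf1 differed between libraries and did not pass (log2 fold change 1.95 ± 0.87 (SE), adjusted p = 0.0723), and its value was -1.23 without P25 (adjusted p = 0.561). It passed by DESeq2 (log2 fold change 2.10, adjusted p = 0.0396), which called 7 members, without the 5% of cells with the most UMIs (2.21, adjusted p = 0.0361) and without P15 (2.99, adjusted p = 5.4e-04). Fgf10 did not pass either (log2 fold change -1.81 ± 1.15 (SE), adjusted p = 0.194). These folds are of the whole gate, in which 330 of 851 (P15) and 91 of 221 (P25) cells were low in Col1a1. In those cells Fgfr1 was 20.6 CPM (P15) and 15 (P25), and they were not tested apart. Without the library as a block the Fgf7 call was lost (adjusted p = 0.08) and Fgf1 passed (log2 fold change 2.02, adjusted p = 0.0318). The Fgfr1 call was lost without P25, the Fgf7 call without P15, with doubled UMI minimums and with an Rgs5 minimum of 20 UMIs, and the Fgf18 call in 9 of 16 other settings, without P25 and without P8w among them.

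Within the mesenchyme edgeR called few members. In the Ifitm5 gate it called 2 of the 8, while 7 had an unadjusted p under 0.05 and DESeq2 called 3. In the Pappa2 gate edgeR and DESeq2 each called 1, and 1 had an unadjusted p under 0.05 by edgeR. In the Pappa2 gate against the other 4 mesenchymal gates, Fgfr3 was 2.97-fold higher (log2 fold change 1.57 ± 0.27 (SE), adjusted p = 0.0294), where 0.131% of genes were called higher and 0.0871% lower (0.218% in all). That sum rests on P15 and P25 only, and the call was lost without P15 (log2 fold change 0.78, adjusted p = 0.377) and without P8w (1.56, adjusted p = 0.139). In the Ifitm5 gate, where 4.36% of genes were called higher and 3.72% lower (8.08% in all), Fgf18 was 2.7-fold higher (log2 fold change 1.43 ± 0.39 (SE), adjusted p = 0.0239) and Fgfr3 2.19-fold lower (log2 fold change -1.13 ± 0.26 (SE), adjusted p = 0.0106). The Fgf18 call was lost without P15, without P25, without the block (adjusted p = 0.06) and with the UMI minimums halved. The Fgfr3 call was lost without P25, without P8w, with the minimums halved and with an Rgs5 minimum of 20 UMIs (log2 fold change -0.64, adjusted p = 0.125). The mean it was set against holds the Pappa2 and Rgs5 gates, which were highest in Fgfr3. The Ifitm5 level was below the other 4 in each library. Its interval overlapped that of the Hand2 gate at P15, and those of the Hand2, Ibsp and Pappa2 gates at 8 weeks.

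By edgeR, 0 of the 8 members were called in the Ibsp gate, the Hand2 gate and the Rgs5 gate. Of all genes, 0.828% were called higher and 0.305% lower in the Ibsp gate (1.13% in all), 1.34% and 1.71% in the Hand2 gate (3.06%) and 3.36% and 0.29% in the Rgs5 gate (3.65%). At an unadjusted p under 0.05 there were 1, 3 and 3 members, and DESeq2 called 0 in each. For Fgfr1, the log2 fold change was 0.96 in the Ibsp gate (95% interval 0.33 to 1.59), 0.85 in the Ifitm5 gate (0.21 to 1.49) and -0.84 in the Hand2 gate (-1.56 to -0.12). The unadjusted p-values of these 3 comparisons were under 0.05 and the adjusted ones, 0.127, 0.0642 and 0.178, were not. For every member in these 3 gates, the interval of the difference included log2 fold changes under 1 in size.

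The study sets cementoblast α, rich in Ibsp, beside cementoblast β, rich in Ifitm5, and the 2 gates were compared directly. Cells that met both went to the Ifitm5 gate, unless an earlier gate took them, so the comparison depends on the gate order. Of the Ifitm5 gate cells, 265 of 787 (P15), 219 of 893 (P25) and 60 of 298 (8 weeks) met no other gate. The overlap thus limits every age, and the later ages no less than P15. The study reports that its P15 cells contributed mainly to cementoblast α. The P15 values therefore compare 2 gates and were not shown to compare α with β. By edgeR 0 of the 8 members were called, where 0.973% of genes were called higher and 1.82% lower (2.8% in all), with 2 members at an unadjusted p under 0.05 and 0 calls by DESeq2. Fgfr1 did not differ detectably (log2 fold change 0.09 ± 0.37 (SE), adjusted p = 0.962, 95% interval -0.74 to 0.92). Fgf7 was higher in Ibsp cells in 3 of 3 libraries but did not pass the adjustment (log2 fold change 1.93 ± 0.59 (SE), adjusted p = 0.0991, 95% interval 0.60 to 3.26). It passed with the UMI minimums of the gates doubled (log2 fold change 2.41, adjusted p = 0.0347) and with minimums per 10000 UMIs (2.58, adjusted p = 0.0166). Fgf18 was lower in Ibsp cells in 3 of 3 libraries and did not pass either (log2 fold change -1.24 ± 0.49 (SE), adjusted p = 0.193, 95% interval -2.33 to -0.16). Fgfr2 was higher in Ibsp cells in 3 of 3 libraries without passing (log2 fold change 0.53 ± 0.25 (SE), adjusted p = 0.291, 95% interval -0.02 to 1.09), and it passed when cells meeting several gates were left out (log2 fold change 1.58, adjusted p = 0.0224).

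**Figure D3:**
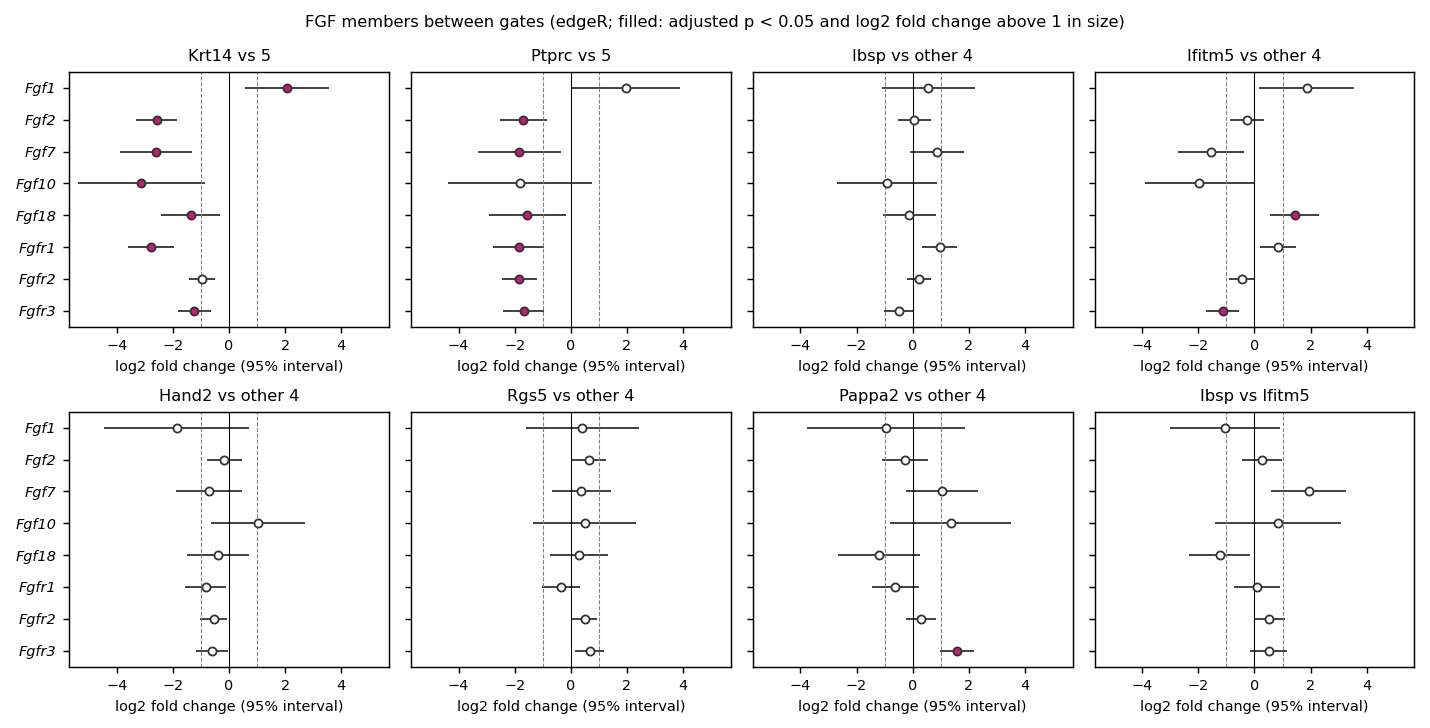
Log2 fold changes of the 8 tested members in 8 comparisons between gates, with approximate 95% intervals derived from edgeR's F values over the 3 libraries. Filled points passed both thresholds, and dashed lines mark a log2 fold change of 1 in size. "5" and "other 4" are the mean of the mesenchymal gates. The Krt14 and Ptprc panels hold most of the filled points, and the Ibsp, Hand2, Rgs5 and Ibsp against Ifitm5 panels hold none.

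Other genes of the pathway were counted from lists of other FGF family genes, binders, heparan sulfate genes, adaptors and feedback targets. Of 13 feedback targets, 4 were higher in the Ifitm5 gate and 0 lower, where 4.36% of all genes were called higher. Their median log2 fold change was 0.80, beside -0.01 over all genes, and it was 0.82 in the Ibsp gate. Spry1, a Sprouty inhibitor, was 1.93 log2 units higher, Etv5 1.67, Dusp6 1.66 and Spry4 1.04, with adjusted p = 3.5e-04, 7.4e-04, 0.00196 and 0.0462. The Spry4 call was lost in 11 of 16 other settings, the Dusp6 call without P25, the Spry1 call when cells meeting several gates were left out, and the Etv5 call in none of the 16.

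In the Hand2 gate Spry1, Etv5, Spry4 and Dusp6 were lower and 0 of the 13 were higher, where 1.71% of all genes were called lower. Spry1 stood at 3.98 CPM (P15), 6.84 (P25) and 4.99 (8 weeks) there, beside 72.3 CPM (P15), 27.5 (P25) and 41.9 (8 weeks) in the Ifitm5 gate and 69.8 CPM (P15), 35.8 (P25) and 29 (8 weeks) in the Ibsp gate. Etv5 stood at 3.73 CPM (P15), 1.98 (P25) and 3.07 (8 weeks) in the Hand2 gate and 21.9 CPM (P15), 16 (P25) and 19.9 (8 weeks) in the Ifitm5 gate. The groups did not overlap for either gene. The log2 fold changes in the Hand2 gate were -2.18 for Spry1, -2.04 for Etv5, -1.67 for Spry4 and -1.52 for Dusp6, and all 4 calls were lost without P25 and when Hand2 was gated before Ibsp. Of the 16 other settings, 4 ended the Spry1 call, 3 the Etv5 call, 7 the Spry4 call and 8 the Dusp6 call, the last 2 also without the library block. The list's median was -1.04, beside 0.01 over all genes. The 2 contrasts share sums, since each gate is part of the mean of the other.

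In the Ibsp gate 1 feedback target, Spry1, was higher (log2 fold change 1.62, adjusted p = 0.00773), where 0.828% of genes were called higher. That call was lost without P25, without P8w, with the UMI minimums halved and when Hand2 was gated before Ibsp. Of the 13 targets, 9 had an unadjusted p under 0.05 by edgeR in the Ibsp gate, and DESeq2 called 3. The list's median there was 0.82, beside 0.02 over all genes. In the direct comparison of Ibsp against Ifitm5, edgeR and DESeq2 called 0 of the 13, with a median of -0.04. In the Krt14 gate, where 15% of genes were called higher and 18.1% lower, 2 were higher and 5 lower, with Spry4 -2.36, Spred3 -1.79 and Il17rd -1.61 among the lower ones. In the Ptprc gate, where 20.6% of genes were called higher and 14.8% lower, 4 were higher and 3 lower, with Dusp6 higher at 2.44. In the Rgs5 gate Dusp5 was higher at 1.33, a call lost without P25, without P8w, without the library block, without the P25 and 8-week Rgs5 sums and with an Rgs5 minimum of 20 UMIs. In the Pappa2 gate edgeR called 0 of the 13, with 6 at an unadjusted p under 0.05 and 1 call by DESeq2. The list's median there was -0.92, beside -0.01 over all genes, so low values were not particular to the Hand2 gate.

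Of 17 other genes of the FGF family, 7 had enough counts to be tested. In the Krt14 gate 5 were lower, Fgf12, Fgf13, Fgf14 and Fgf9 among them, where 18.1% of all genes were called lower. In the Ptprc gate 2 were lower, Fgf12 and Fgf13, where 14.8% were. Fgf9, a ligand of mesenchymal receptor forms, was higher in the Ibsp gate (log2 fold change 3.11, adjusted p = 4.1e-04) and in the Ifitm5 gate (3.08, adjusted p = 5.5e-05). It stood at 38.6 CPM (P15), 47.1 (P25) and 56.7 (8 weeks) in the Ibsp gate and 32.6 CPM (P15), 25.4 (P25) and 79.9 (8 weeks) in the Ifitm5 gate. The Hand2 gate held 1.24 CPM (P15), 3.6 (P25) and 5.37 (8 weeks) and the Krt14 gate 2.67 CPM (P15), 1.41 (P25) and 0 (8 weeks), below both mineralizing gates in each library. The Ibsp call was lost without P25 and when Hand2 was gated before Ibsp, and the Ifitm5 call in none of the 16 other settings. In the Pappa2 gate Fgf9 was lower (log2 fold change -4.48, adjusted p = 0.0272), from 5 UMIs at P15 and 2 at P25, where 0.0871% of genes were called lower, and that call was lost in 7 of the 16. Fgf13, which codes for an intracellular FGF homologue that is not secreted, was lower in Ibsp than in Ifitm5 cells (log2 fold change -1.84). Fgf14, like Fgf12 of the same kind, was higher in the Hand2 gate (3.07). Both calls were lost without P25 and without P8w, that of Fgf13 in 5 of 16 other settings.

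Among 8 binding proteins and coreceptors, 6 were tested. Fgfbp1, a carrier that releases FGFs from the matrix, was 8.6 log2 units higher in the Krt14 gate (adjusted p = 4.8e-11), at 35.3 CPM (P15), 148 (P25) and 138 (8 weeks) there and at most 0.984 CPM in the 5 mesenchymal gates. Fgfrl1, a receptor without a kinase, was lower in the Krt14 gate (-1.44) and the Ptprc gate (-1.60). Flrt2, a membrane protein that binds FGF receptors, was higher in the Rgs5 gate (1.72) and lower in the Ifitm5 gate (-1.43), and both calls were lost in 4 of 16 other settings, without P25 and without P8w among them.

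Of the 18 heparan sulfate genes, all of which were tested, 1 was higher and 6 lower in the Krt14 gate, and 3 were higher and 8 lower in the Ptprc gate. Over all genes 15% were called higher and 18.1% lower in the Krt14 gate, and 20.6% and 14.8% in the Ptprc gate. Sulf2, an enzyme that removes sulfate groups from heparan sulfate, was higher in the Hand2 gate (log2 fold change 2.28, adjusted p = 0.00129) and lower in the Ifitm5 gate (-2.74, adjusted p = 5.8e-04). It stood at 144 CPM (P15), 107 (P25) and 76.8 (8 weeks) in the Hand2 gate and 9.73 CPM (P15), 5.31 (P25) and 2.59 (8 weeks) in the Ifitm5 gate, and both calls were lost without P25. Gpc1, a glypican that carries heparan sulfate chains, went the other way between the gates of mineralizing cells, higher in Ifitm5 than in Ibsp cells (Ibsp against Ifitm5 log2 fold change -1.44), a call lost in 4 of 16 other settings, without P25 and without P8w among them. Of 8 adaptors, 2 were lower in the Krt14 gate, beside 18.1% of all genes, Frs3 (-1.43) and Shc1 (-1.22), and by edgeR and DESeq2 0 were called in the mesenchymal comparisons, with 1 to 4 at an unadjusted p under 0.05. In the Ptprc gate Grb2, which couples receptors to Ras, was higher (2.03), and Frs3 (-1.09) and Plcg1 (-1.25) were lower, where 20.6% of all genes were called higher and 14.8% lower. The Frs3 call was lost in 9 of 16 other settings, with DESeq2, without the low-count filter and without any 1 library among them, and DESeq2 called 2 of the 8.

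Cells that met no gate carried more than their share of the UMIs of 4 ligands, Fgf2, Fgf7, Fgf10 and Fgf18. They held 50.4%, 43.4% and 52.4% of all UMIs at P15, P25 and 8 weeks, and at P15 the shares of Fgf7 and Fgf18 were close to that value. Of the Fgf10 UMIs they held 72.7% (P15), 75.5% (P25) and 89.9% (8 weeks), and of the Fgf18 UMIs 52.5% (P15), 74% (P25) and 86.2% (8 weeks). Their share of the Fgfr1 UMIs, 42.2% (P15), 41.4% (P25) and 43% (8 weeks), was below their share of all UMIs. For the other receptors the share was 46.7% (P15), 55.5% (P25) and 59.2% (8 weeks) for Fgfr2, 47% (P15), 58.8% (P25) and 62.1% (8 weeks) for Fgfr3 and 68.4% (P15), 68.2% (P25) and 83.3% (8 weeks) for Fgfr4, above the share of all UMIs at P25 and 8 weeks. For Fgf7 they held 51.6% (P15), 69.5% (P25) and 71.3% (8 weeks), and for Fgf2 60.4% (P15), 66.6% (P25) and 64.5% (8 weeks).

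The ungated cells were split by 5 genes that the study uses for precursors (Ogn, Pcp4, Thbs4) and for periapical cells (Htra1, Mgp), with at least 5 UMIs each, and a cell could carry several. Fgf7 was highest in the cells with Htra1, at 45.4 CPM (P15), 49.9 (P25) and 77 (8 weeks), and lowest in those with Pcp4, at 2.64 CPM (P15), 6.82 (P25) and 7.4 (8 weeks). Fgf10 was highest in the cells with Mgp, a matrix protein that limits mineralization, at 4.33 CPM (P15), 7.68 (P25) and 46.3 (8 weeks), and lower in those with Thbs4, at 0.941 CPM (P15), 1.65 (P25) and 2.31 (8 weeks). Fgf18 stood at 7.99 CPM (P15), 15.5 (P25) and 28.6 (8 weeks) with Mgp and 1.68 CPM (P15), 4.38 (P25) and 9.74 (8 weeks) with Ogn. Fgfr2 was 217 CPM (P15), 182 (P25) and 209 (8 weeks) with Thbs4 and 131 CPM (P15), 94.7 (P25) and 44.2 (8 weeks) with Mgp. Fgfr1 was highest with Htra1, at 358 CPM (P15), 359.9 (P25) and 459 (8 weeks), and Fgfr3 stood at 36.8 CPM (P15), 42.7 (P25) and 38.9 (8 weeks) with Htra1 and 27.4 CPM (P15), 46.3 (P25) and 17.7 (8 weeks) with Mgp. This split was added after the data were seen and carries no test. In the ungated cells with at least 2 UMIs of Pecam1, an endothelial gene, Fgf1 stood at 4.23 CPM (P15), 88.7 (P25) and 0 (8 weeks), where the P25 value rests on 14 UMIs in 7 cells.

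**Figure D4:**
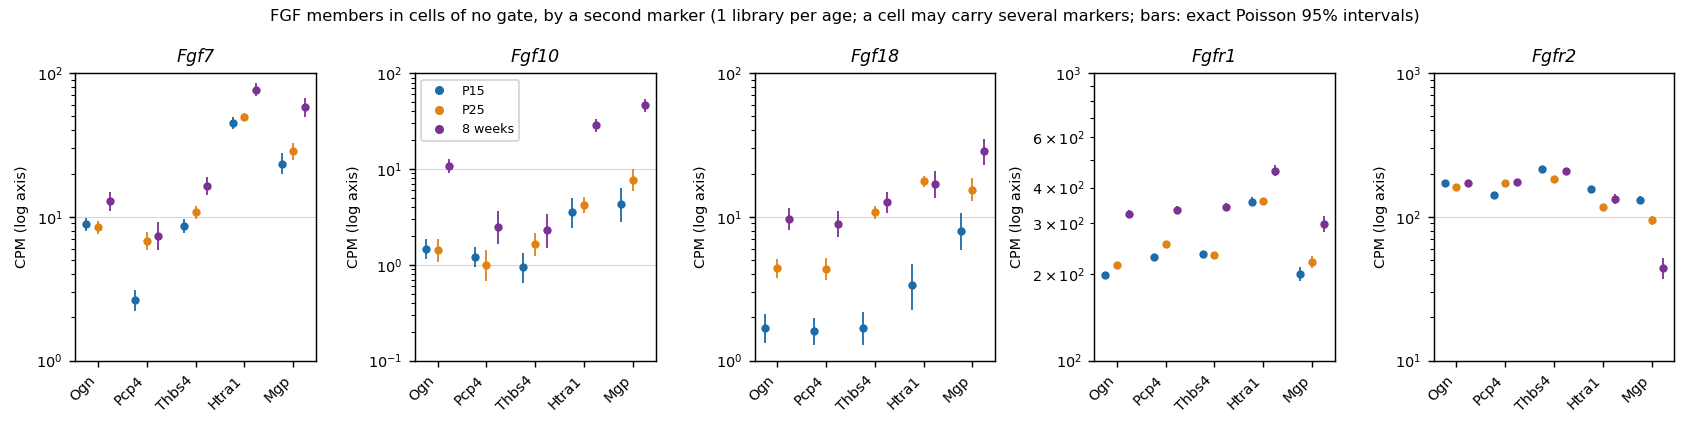
Levels of 3 ligands and 2 receptors in cells of no gate that carry at least 5 UMIs of Ogn, Pcp4, Thbs4, Htra1 or Mgp, in CPM on log axes, with 1 point per library and exact Poisson 95% intervals. Fgf7 is highest in cells with Htra1 and Fgf10 in cells with Mgp, where it reaches 46.3 CPM at 8 weeks, while Fgfr2 is lowest in cells with Mgp at 8 weeks (44.2 CPM).

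Genes that were high in the ungated cells with a UMI of a ligand, against those without, were listed by the mean log2 ratio over the libraries, as a description of sparse counts. The cells with a UMI were the deeper ones, with medians of 14355.5, 17360 and 11556 UMIs against 13030, 14654 and 7072 for Fgf10. For Fgf10 the list was led by Pi16 (2.73), Mfap5 (2.59) and Clec3b (2.54), genes of adventitial fibroblasts. For Fgf18 it held Mfap5 (2.27), Fmod (2.26) and Cd34 (1.93), and for Fgf7 Cxcl5 (3.80), S100a4 (2.26) and Dpt (2.09). For Fgfr2 it was led by Thbs4 (1.37) and held Alpl (0.94), the alkaline phosphatase of mineralizing cells. For Fgfr3 it was led by Mmp13 (1.25) and Bglap (1.23), the osteocalcin gene.

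Among the ungated cells, the ligands stood higher at 8 weeks than at P15. There Fgf10 stood at 1.27 CPM (P15), 2.32 (P25) and 11 (8 weeks), a log2 ratio of 8 weeks over P15 of 3.11 (95% interval 2.80 to 3.44). Fgf18 stood at 1.98 CPM (P15), 8.92 (P25) and 13.2 (8 weeks), a log2 ratio of 2.74 (95% interval 2.47 to 3.01). Fgf7 stood at 8.32 CPM (P15), 22.4 (P25) and 25.6 (8 weeks), a log2 ratio of 1.62 (95% interval 1.47 to 1.77). Each of these 3 ligands had non-overlapping intervals at the 3 ages. Fgf2 stood at 10.5 CPM (P15), 12.3 (P25) and 18.6 (8 weeks) and Fgf1 at 1.84 CPM (P15), 2.29 (P25) and 3.02 (8 weeks). Among the receptors there, the log2 ratio was 0.64 (95% interval 0.61 to 0.68) for Fgfr1, 0.10 (95% interval 0.04 to 0.15) for Fgfr2 and 0.26 (95% interval 0.12 to 0.39) for Fgfr3. Early stress genes of dissociation, 8 genes such as Fos and Egr1, summed to 10720.3 CPM (P15), 15283 (P25) and 24938 (8 weeks) in these cells, and erythroid genes to 6939 CPM (P15), 5379.8 (P25) and 1076 (8 weeks). Their median UMIs per cell were 13064, 14741 and 7298.5. The part of these differences in the ligand levels was not tested, and fewer cells of a kind and less RNA per cell cannot be told apart in these sums. The ratios of the ungated cells were not compared under other settings or with TMM scaling.

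Within the gates the receptors differed between P15 and 8 weeks in both directions. Fgfr1 in the Hand2 gate had a log2 ratio of 8 weeks over P15 of 1.48 (95% interval 1.33 to 1.64), and in the Krt14 gate of -1.83 (95% interval -2.30 to -1.40). It differed less in the Ibsp gate, -0.13 (95% interval -0.17 to -0.09), and the Ifitm5 gate, 0.25 (95% interval 0.18 to 0.31). Fgfr2 was lower at 8 weeks in the Ibsp gate, -1.09 (95% interval -1.18 to -1.01), the Ifitm5 gate, -0.79 (95% interval -0.95 to -0.63), and the Krt14 gate, -1.12 (95% interval -1.43 to -0.82). In the Hand2 and Rgs5 gates its ratios were 0.18 (95% interval -0.03 to 0.40) and 0.07 (95% interval -0.08 to 0.23), whose intervals include 0. With cells that meet several gates left out, the Fgfr2 ratio in the Ifitm5 gate was 0.56 in place of -0.79. The cells of the Krt14 gate carried 2282, 2838 and 826 CPM of Col1a1 at P15, P25 and 8 weeks, and in its cells low in Col1a1 Fgfr1 was 36.2 CPM (P15), 11.3 (P25) and 10.5 (8 weeks). The Hand2 gate carried 77.9, 299 and 622 CPM of Ibsp at the 3 ages, and the part of this in its Fgfr1 levels was not tested. Nor was the part of the Hand2 cells that earlier gates took, which differed between the ages for the Hand2 and Ibsp gates.

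**Figure D5:**
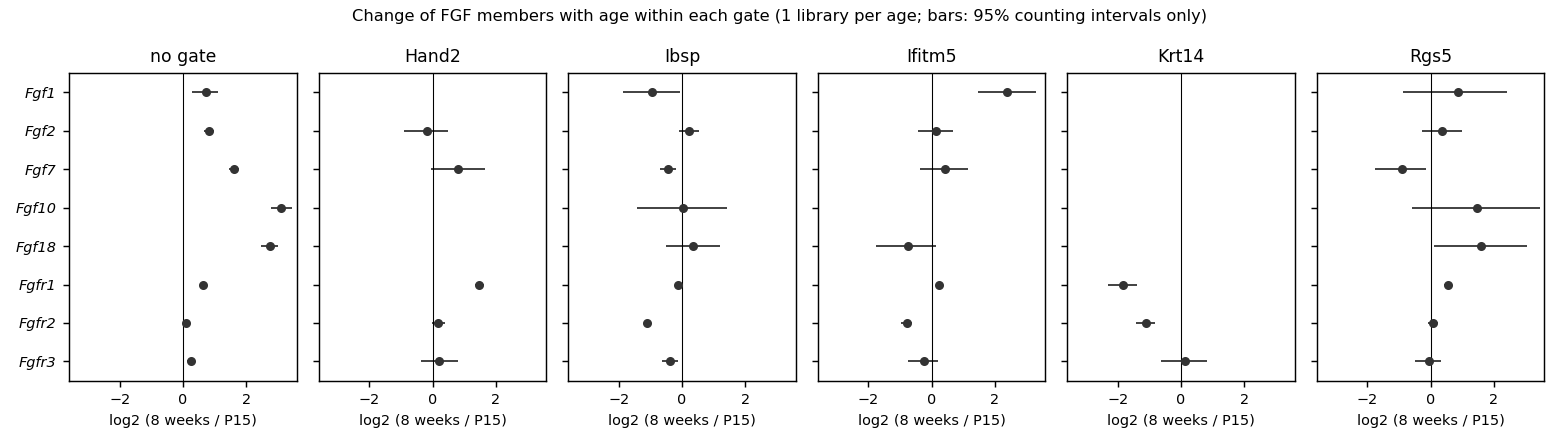
Log2 ratio of CPM at 8 weeks over P15 for the 8 better detected members within 6 classes of cells, with 95% intervals that cover counting error only, since each age is 1 library; ratios with too few UMIs are left out. In cells of no gate every ligand lies above 0, with Fgf10 at 3.11 and Fgf18 at 2.74, while Fgfr2 lies below 0 in the Ibsp, Ifitm5 and Krt14 gates.

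The genes whose sums ran most like a member over the 19 sums of gate and library were found by the Pearson correlation of log2(CPM + 1). For Fgfr1 they were Mxra8 (0.97), Tbx2 (0.97) and Phldb1 (0.97), for Fgfr2 Chd3os (0.91), Bace1 (0.87) and Rnd3 (0.87) and for Fgfr3 Prdx4 (0.83), Aspn (0.82) and Gpc4 (0.82). For Fgf2 they were Tceal3 (0.94), Ptprd (0.94) and Nbea (0.94), for Fgf7 Pcnx (0.92), Col6a2 (0.89) and Col6a1 (0.88) and for Fgf18 Pcsk5 (0.90), Gde1 (0.90) and Tmem59 (0.89). For Fgf10 they were Gaa (0.82), App (0.77) and Mfap4 (0.77). The 19 points share libraries and depth, so these values are a description.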

How the data were processed

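The measurements are 10x Genomics 3' single-cell RNA-seq of cells sorted for mCherry. The authors deposited, for each library, a sparse matrix of UMI counts per gene and cell made with Cell Ranger (version 6.1.2 and mm10 per the labels). The header of the P25 matrix names another version, and its gene table is larger. No normalization had been applied to the deposited counts. Another age that the study describes was not analysed here.

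Genes were joined by identifier, which left 21446 genes holding 99.7%, 95.2% and 99.8% of UMIs at P15, P25 and 8 weeks (total UMIs 188157997, 169712592 and 46234378). All deposited cells were used. No doublet caller was run, and cells meeting several gates were left out as an alternative. Levels are UMIs per 1000000 of the cells' total over shared genes (CPM), with exact Poisson 95% intervals. Ratios between ages have exact conditional binomial intervals, and both cover counting error only.

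UMIs were summed by gate and library and tested in edgeR 4.0.16 (R 4.3.3; TMM scaling, filterByExpr, quasi-likelihood F test, Benjamini-Hochberg adjustment) with the library as a term, since sums of 1 library come from the same pool of cells. Checked on simulated counts for the Krt14 comparison, edgeR recovered 58% of genes with a log2 fold change of 1 and 88% of those with 2 (100 each, 13487 genes). Recovery here means an adjusted p under 0.05 without the limit on size, so calls by both rules would be fewer. The simulation held no library effect and did not cover the comparisons within the mesenchyme. DESeq2 1.42.0, other gates and filters, and leaving out each library were the alternatives. Thinning drew 3000 UMIs per cell. The text names all members, pathway genes by list and size among those called, and the 3 genes most correlated with each member among genes with a mean of at least 20 CPM (those of Fgf1 are not reported here). The splits of ungated cells, the cells low in Col1a1 and their values, and named genes outside this rule were chosen after values were seen. The members and lists were chosen with earlier results of these data known. Whether cells came from separate animals per library is not tested, so p-values rest on the spread among sums of the 3 libraries, pooled over the gates. Intervals treat UMIs as independent molecules.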

Additional observations from a re-analysis of the deposited data

Results flagged for a closer look

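Between P15 and 8 weeks, Fgfr1 went in opposite directions in the Krt14 and Hand2 gates, with log2 ratios of 8 weeks over P15 of -1.83 (95% interval -2.30 to -1.40) and 1.48 (1.33 to 1.64). Fgf1 went in opposite directions in the gates of mineralizing cells, with -0.94 (-1.88 to -0.08) in the Ibsp gate and 2.37 (1.48 to 3.29) in the Ifitm5 gate. Each age is 1 library, so these differences between gates were not tested.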

How the results depend on the processing

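Of 8 comparisons between gates under 16 other settings each, 91 counts of called genes stayed within 1.5 times the main count and 37 did not. With the adjusted p alone the counts were 8277 in place of 4560 (Krt14), 7719 in place of 4881 (Ptprc) and 2026 in place of 1113 (Ifitm5). The replicate block is the library term: without it the Ibsp comparison had 65 in place of 156, Rgs5 291 in place of 503 and Ibsp against Ifitm5 174 in place of 385, and among the member calls it changed those of Fgf7 and Fgf1 in the Ptprc gate and Fgf18 in the Ifitm5 gate. DESeq2 gave 327 for Ibsp (44.0% higher, in place of 73.1%) and 108 in place of 30 for Pappa2. Doubled UMI minimums gave 95 for Ibsp, and halved ones 415 for Ibsp, 488 for Ifitm5, 171 in place of 421 for Hand2, 233 for Rgs5 and 190 for Ibsp against Ifitm5. Minimums per 10000 UMIs gave 792 for Rgs5. Leaving out cells in several gates gave 266 for Ibsp and 12 for Pappa2, and leaving out the 5% of cells with the most UMIs gave 46 for Pappa2. Leaving out each library in turn gave 3321 to 4897 for Krt14, 3040 to 4892 for Ptprc, 3 to 358 for Ibsp, 149 to 1325 for Ifitm5, 4 to 396 for Hand2, 11 to 608 for Rgs5, 4 to 34 for Pappa2 and 0 to 986 for Ibsp against Ifitm5, the lowest being without P25 in each. Without P25, edgeR called 0 genes for Ibsp against Ifitm5, with 876 at an unadjusted p under 0.05. DESeq2 was not run without P25. Added after seeing the data, leaving out the P25 and 8-week Rgs5 sums gave 86 for Ibsp and 180 for Rgs5, at least 20 Rgs5 UMIs gave 141 for Pappa2, and Hand2 taken before Ibsp gave 6 for Ibsp, 59 for Pappa2 and 221 for Ibsp against Ifitm5. Directions reversed for Fgf18 in Krt14 (0.074) and Flrt1 in Rgs5 (-0.63) with 20 Rgs5 UMIs, and, leaving out each library in turn, for Fgf1 (-1.23 without P25, to 2.99) and Sdc3 (-0.23 without P25, to 3.33) in Ptprc and for Fgfr1 in Ibsp against Ifitm5 (-0.050 without P15, to 0.24). With cells in several gates left out, the log2 ratios of 8 weeks over P15 reversed for Fgf7 (0.53) and Fgfr3 (0.18) in the Ibsp gate and Fgfr2 (0.56) in the Ifitm5 gate. The cause of these shifts was not tested. Among member values, 364 kept direction and side of the threshold, 37 lost it and 12 passed it; among pathway genes, 891 kept it and 209 lost it. The sparse ligands (Fgf10, Fgf18, Fgf1) and the 19-cell gates limit what depth can show.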
